A study of Mus musculus with 2 samples.

Results

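The coagulation, complement and inter-alpha inhibitor genes described here are 44 genes for plasma proteins, listed by name, out of 21887 protein-coding genes on standard chromosomes. All 44 were found by symbol. Of these, 19 act in coagulation, the contact phase or fibrinolysis, 18 in complement, and 7 encode inter-alpha inhibitor proteins or fetuins. Hnf4a binding was mapped by ChIL-seq, an antibody-based method that marks DNA near the bound protein by transposition and amplifies it by transcription inside the fixed cell. The cells, called iHepC, were derived from wild-type C57BL/6J mouse embryonic fibroblasts by retroviral forced expression of Foxa2 and Hnf4a, so both libraries carry the introduced factors, and introduced and endogenous Hnf4a cannot be told apart. The culture medium held insulin, nicotinamide, dexamethasone (100 nM), EGF (20 ng/ml) and HGF (20 ng/ml). The single group has 2 samples. The submitters describe them as biological replicates, the peak names give both the same lot, and no library without the antibody or without the factors was analysed here. The labels give the cell type as fibroblast and the tissue as embryo, and the files hold no expression values by which the hepatocyte-like state could be checked.

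In liver, hepatocytes make most clotting factors and complement components and secrete them as inactive precursors. In coagulation, proteases activate one another in turn until thrombin cuts fibrinogen. Complement is a second protease cascade that starts from antibodies, from sugars on microbes or from C3 itself, and ends in a pore in the target membrane. Inter-alpha inhibitors are heavy chains attached to bikunin through a sugar chain and are passed on to hyaluronan. HNF4A is a nuclear receptor that binds the promoters of many such genes in liver, and its sites in the genes of vitamin K-dependent factors are textbook examples.

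Each library gave a list of 1-bp peak summits in mm10 with the authors' −log10 q as a score. The lists held 21283 summits in replicate 1 and 24097 in replicate 2, with median scores of 7.32 and 6.67. Read depth is unknown. A shared region is a group of summits, each within 100 bp of the next, that holds a summit of both replicates, and there were 9193 of these. A gene was counted when a summit or shared region lay within 10 kb of either of its ends.

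Start-site windows are shown first, since they give the sequence under some of the summits. RefSeq windows in GRCm38.p6, the assembly of mm10, run from 250 bases before to 50 after a transcription start, and 39 windows matched 36 of the 44 genes. Kng1, Masp1, Plg, C4b, Cfb, C2, Proc and Cfi had no window. In 1 of the 39 windows, that of Itih2, both replicates placed a shared region. That of the long non-coding RNA gene Gm30611 is shown because it holds the shared region between the fetuin genes Ahsg and Fetub. The windows of F11 and C9 each hold a summit of replicate 1 alone. Each is written 5′ to 3′ on the gene's strand in lower case, with capitals for the 21 bases centred on each summit. The Itih2 window is chr2:10130634-10130933 on the minus strand, Gm30611 is chr16:22912966-22913265 on the minus strand, F11 is chr8:45261982-45262281 on the minus strand and C9 is chr15:6445096-6445395 on the plus strand.
Itih2: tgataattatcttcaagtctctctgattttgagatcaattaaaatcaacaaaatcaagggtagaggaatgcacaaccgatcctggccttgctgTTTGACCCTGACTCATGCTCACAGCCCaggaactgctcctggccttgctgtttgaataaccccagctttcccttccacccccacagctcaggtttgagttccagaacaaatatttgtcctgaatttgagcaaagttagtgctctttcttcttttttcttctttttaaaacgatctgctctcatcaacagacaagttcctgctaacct
Gm30611: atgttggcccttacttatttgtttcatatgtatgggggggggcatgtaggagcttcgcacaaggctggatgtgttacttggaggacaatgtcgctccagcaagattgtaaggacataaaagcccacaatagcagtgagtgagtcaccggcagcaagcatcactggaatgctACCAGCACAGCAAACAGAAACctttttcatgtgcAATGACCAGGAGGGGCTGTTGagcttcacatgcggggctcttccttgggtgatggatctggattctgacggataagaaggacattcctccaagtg
F11: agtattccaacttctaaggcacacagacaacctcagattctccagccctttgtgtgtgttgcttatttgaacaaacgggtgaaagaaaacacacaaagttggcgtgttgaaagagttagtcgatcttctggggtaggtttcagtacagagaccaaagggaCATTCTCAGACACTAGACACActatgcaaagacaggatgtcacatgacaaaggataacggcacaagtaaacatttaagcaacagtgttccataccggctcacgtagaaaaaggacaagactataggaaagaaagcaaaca
C9: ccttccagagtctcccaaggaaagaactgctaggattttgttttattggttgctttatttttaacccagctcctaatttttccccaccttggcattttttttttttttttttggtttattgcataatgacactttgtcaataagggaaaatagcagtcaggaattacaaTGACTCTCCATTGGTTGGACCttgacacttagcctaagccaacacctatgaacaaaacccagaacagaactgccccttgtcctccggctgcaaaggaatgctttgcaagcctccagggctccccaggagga

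Counted from the first base of the window, the Itih2 summits stand at base 110 in replicate 1 (score 11.7) and base 104 in replicate 2 (score 15.1), so the capitals of both run together. Those of Gm30611 stand at base 182 in replicate 1 (19.2) and base 216 in replicate 2 (9.60). The F11 summit is at base 171 (11.03) and the C9 summit at base 180 (7.01). Over the 39 windows, 3 held a replicate 1 summit (7.69%), those of Itih2, F11 and C9. A replicate 2 summit was in 2 (5.13%), those of Itih2 and the second start of Fetub, and a shared region in 1 (2.56%). Over all 32851 windows of the table the shares were 7.09%, 6.41% and 3.58%. The members' shares rest on 3, 2 and 1 windows and were not tested against these. They also leave out the 8 genes without a window, among them Kng1, Cfb, C2 and Masp1. These had a shared region with its midpoint 7, 23, 111 and 571 bp from a gene end, so the start sites of the whole list remain undescribed.

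Further windows are shown for their letters. HNF4 sites were searched as CAAAGTCCA, CAAAGTTCA and CAAAGGTCA on both strands, with exact matches only. In 2 of the 39 windows 1 of these was present, F7 and F9, both with CAAAGGTCA on one strand or the other, which encode the vitamin K-dependent factors VII and IX. The same letters stood in the window of C1rl, a relative of the complement protease genes C1ra and C1s1 in the same cluster, and that window also holds a shared region. Here the capitals mark the match. F7 is chr8:13025784-13026083, F9 is chrX:59999214-59999513 and C1rl is chr6:124492863-124493162, all on the plus strand.
F7: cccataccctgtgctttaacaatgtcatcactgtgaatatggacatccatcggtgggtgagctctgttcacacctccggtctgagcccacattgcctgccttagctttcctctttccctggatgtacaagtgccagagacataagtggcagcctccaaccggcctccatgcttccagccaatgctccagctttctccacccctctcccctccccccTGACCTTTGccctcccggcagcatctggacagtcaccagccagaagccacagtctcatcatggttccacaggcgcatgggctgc
F9: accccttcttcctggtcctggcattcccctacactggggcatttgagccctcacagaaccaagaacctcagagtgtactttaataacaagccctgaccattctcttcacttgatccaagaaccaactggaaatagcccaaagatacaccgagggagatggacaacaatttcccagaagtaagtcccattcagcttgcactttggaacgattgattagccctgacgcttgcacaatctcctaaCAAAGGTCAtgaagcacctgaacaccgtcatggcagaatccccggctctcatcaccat
C1rl: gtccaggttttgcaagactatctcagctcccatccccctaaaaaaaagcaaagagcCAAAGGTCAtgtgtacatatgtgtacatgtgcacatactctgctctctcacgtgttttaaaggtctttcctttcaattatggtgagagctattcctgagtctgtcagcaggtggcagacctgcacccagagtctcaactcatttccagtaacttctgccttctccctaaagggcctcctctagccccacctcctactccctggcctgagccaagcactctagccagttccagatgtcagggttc

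The matches lie at bases 217 to 225 in F7, 243 to 251 in F9 and 57 to 65 in C1rl. Neither the F7 nor the F9 window held a summit of either replicate. The C1rl summits stand at base 116 in replicate 1 (8.50) and base 178 in replicate 2 (11.4). Any of the 3 letter strings occurred in 5.13% of the members' windows and in 1.33% of all windows.

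For the other factors, GTTAATNAT, an HNF1 site, was in 5 of 39 windows (12.8%) against 0.801% of all windows: C4bp, F13b, Hc, Hgfac and Habp2. Of these 5 genes, Hc was the 1 with a shared region within 10 kb. TTGCNNAAT, a C/EBP site, was in 4 windows (10.3% against 2.40%), those of C1s1, C9, C3 and F9, and in F9 its match at bases 227 to 235 lies just before the HNF4 letters. The FOXA letters TGTTTAC were in 3 (7.69% against 3.65%), those of F11, Klkb1 and Fetub, and TATTTAC was in 0 of 39 against 3.04%. The AP-1 letters TGANTCA were in 3 windows, Itih2, C8g and F2 (7.69% against 7.81%), and in Itih2 the match at bases 102 to 108 contains the replicate 2 summit base. A match is a string of letters and shows no binding. No test was run on these shares.

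Over the 44 genes, shared Hnf4a regions were about as frequent as at other genes. Within 10 kb of a gene end, 10 of the 44 had a shared region (22.7%, 95% exact binomial interval 11.5 to 37.8), against 20.6% of the 21843 other protein-coding genes. The 10 were F11 and Kng1 in coagulation, Itih2 and Fetub among the inhibitors, and Masp1, Mbl1, Cfb, C2, Hc and C9 in complement. Inside the gene, 7 of 44 had a shared region (15.9%, interval 6.64 to 30.1) against 13.7% of other genes. Within 50 kb of a gene end, 22 of 44 had one (50%, interval 34.6 to 65.4) against 46.8%. These shares are near the background and do not set the list apart. The promoter table held a start site for 36 of the 44 genes, which leaves out Kng1, Masp1, Cfb and C2, 4 of the 10. Among these 36, 6 had a shared region within 10 kb of a gene end, against 20.7% of other genes with a start site, and 5 within 10 kb of a start site, against 16.6%, with C9 the 1 that differed. Intervals cover counting error only, and neighbouring members can share a region.

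Each replicate taken alone gave more genes, and the 2 replicates differed. In replicate 1, 24 of 44 had a summit within 10 kb (54.5%, interval 38.8 to 69.6) against 39.4% of other genes, while in replicate 2 it was 21 of 44 (47.7%, interval 32.5 to 63.3) against 41.9%. Within 50 kb the counts were 37 of 44 in replicate 1 (84.1%) against 69.3%, and 31 of 44 in replicate 2 (70.5%) against 72.4%. Inside the gene they were 15 in replicate 1 (34.1%) against 26.3%, and 14 in replicate 2 (31.8%) against 28.4%. The intervals of replicate 1 were 69.9 to 93.4 within 50 kb and 20.5 to 49.9 inside the gene, so its 50 kb share had an interval above its background and the others did not. That was 1 of 9 shares set against the background, and the interval treats neighbouring genes as independent. The members were also listed with earlier results of these data known, so the interval is no test of the list. By share of genes, replicate 1 stood above its background in all 3 windows, and replicate 2 stood above it in 2 and below it in 1. By mean summits per gene, members were higher within 10 kb and within 50 kb in both replicates, but not inside the gene. There the means were 0.477 per member and 0.479 per other gene in replicate 1, and 0.455 and 0.543 in replicate 2. The difference between the replicates was not tested.

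**Figure D1:**
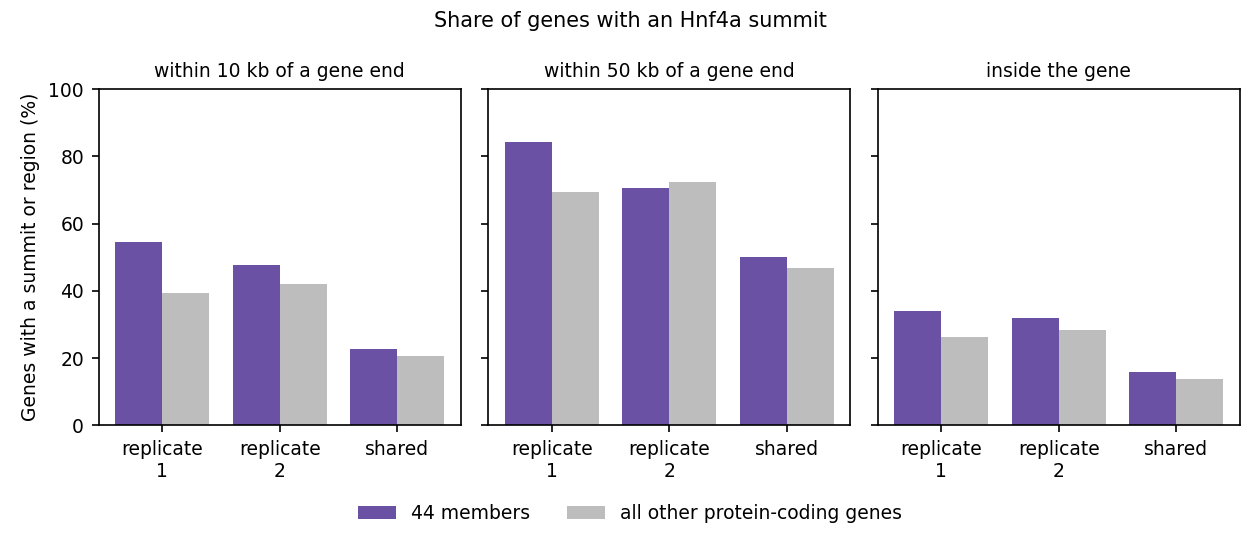
Percent of genes with a summit of replicate 1, a summit of replicate 2 or a shared region, within 10 kb of a gene end, within 50 kb of a gene end and inside the gene; purple bars are the 44 members and grey bars the 21843 other protein-coding genes. For shared regions the bars are close in every window (22.7 and 20.6, 50 and 46.8, 15.9 and 13.7), while for replicate 1 the members' bar is the higher one each time.

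Neighbouring members were also counted once. Genes up to 20 kb apart were joined, which made 35 loci of the 44 genes. A shared region was present at 9 of these (25.7%), against 25.1% of 9206 loci that the other genes formed in the same way. The other genes' loci held 2.37 genes on average and the members' 1.26. With genes joined up to 100 kb apart, the members' share was the lower one, at 8 of 33 loci (24.2%) against 37.2%, and the other genes' loci then held 7.30 genes on average. Per length, the windows of 10 kb around the members' ends covered 1.47 Mb and held 12 shared regions, or 8.17 per Mb, against 6.50 per Mb around the other genes. They held 35 summits of replicate 1 (23.8 per Mb against 14.7) and 25 of replicate 2 (17.01 against 15.94). The median distance from a gene to its nearest shared region, taken as 0 for a region inside, was 53303 bp for the members and 55331 bp for other genes. Median gene length was 21392 bp and 17151 bp.

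By replicate, 10 members had a shared region within 10 kb, 4 had summits of both replicates that were not shared (9.09%, against 9.08% of other genes), 10 had summits of replicate 1 alone (22.7% against 9.76%) and 7 of replicate 2 alone (15.9% against 12.3%). The other 13 had none (29.5% against 48.3%). The members' share was above that of other genes mainly in the categories with summits of 1 replicate alone, and most so for replicate 1. Neighbours were not joined in these counts. Itih1, Itih3 and Itih4 share replicate 1 summits, and Klkb1 is counted for the summit at the F11 start site.

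**Figure D2:**
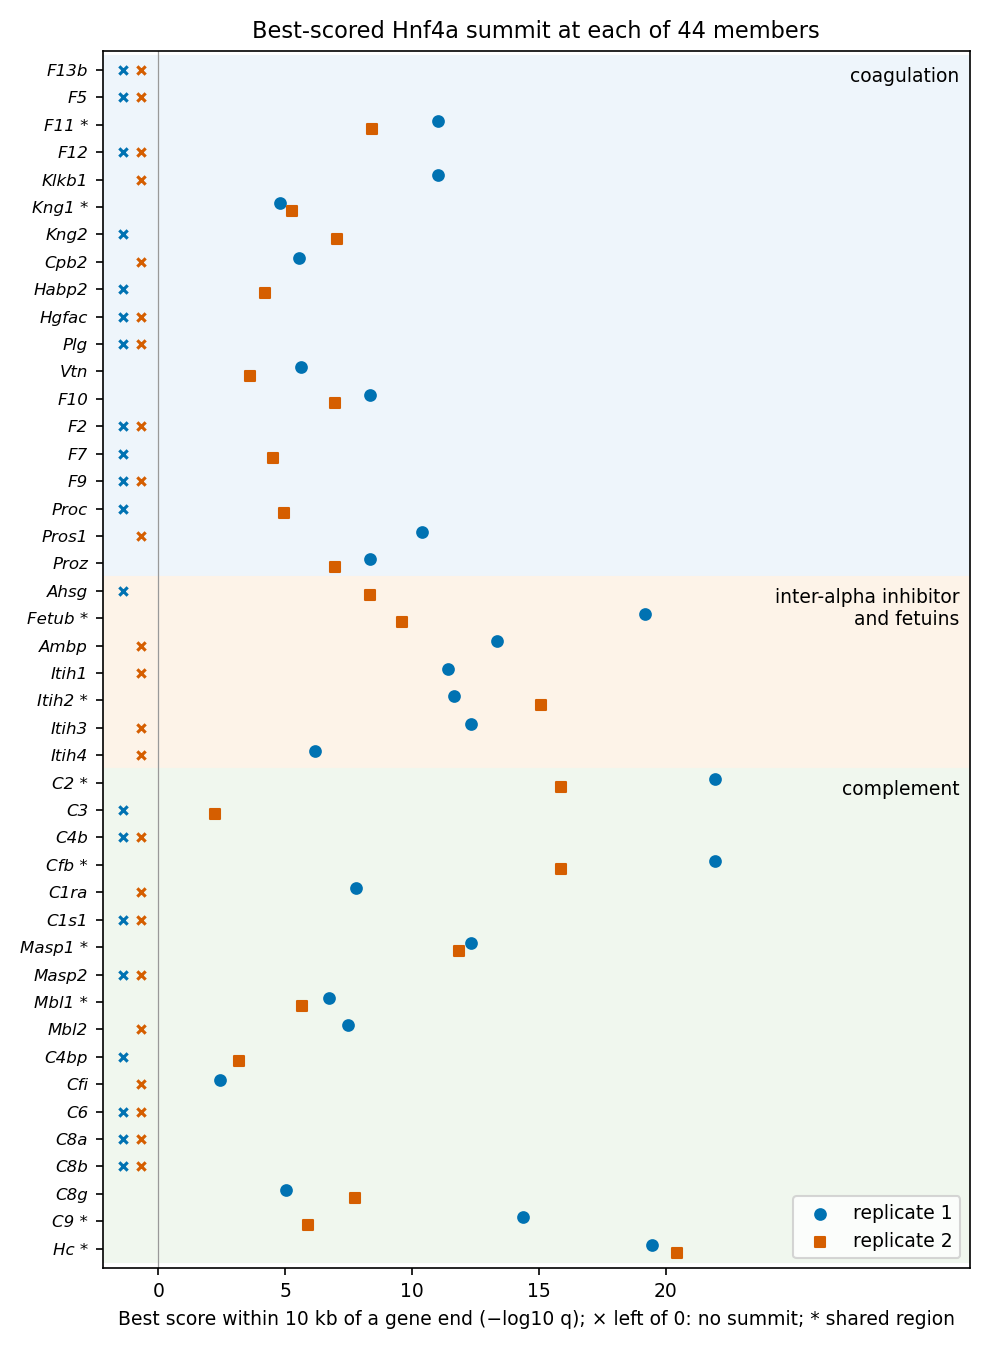
Best summit score (−log10 q) within 10 kb of a gene end for each of the 44 members in replicate 1 (blue circles) and replicate 2 (orange squares), grouped by class; crosses left of 0 mark a replicate with no summit and asterisks a gene with a shared region. Both replicates score highest at Hc, C2 and Cfb, and Itih1, Itih3, Itih4 and Ambp have replicate 1 points alone.

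Among the coagulation genes, 2 of 19 had a shared region within 10 kb and 9 of 19 within 50 kb, beside 20.6% and 46.8% of other genes, and no class was tested. F11 encodes factor XI, which thrombin or factor XIIa activates. Its shared region, chr8:45253322-45253352, lies inside the gene, 8694 bp downstream of the start site, and scored 9.56 in replicate 1 and 8.42 in replicate 2. The replicate 1 summit of the F11 window shown above is 80 bp upstream of the start site, and its nearest replicate 2 summit is 8789 bp away. Replicate 1 also had a summit 1174 bp beyond the other gene end (8.81).

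Klkb1, next to F11, encodes plasma prekallikrein, which factor XIIa activates. It had the F11 start-site summit of replicate 1 4577 bp from its end, and no shared region nearer than the one inside F11 at 13351 bp. F12, which encodes factor XII itself, had no summit of either replicate within 10 kb.

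Kng1 and Kng2 encode kininogens, the source of bradykinin. Kng1 had a shared region across the gene end with the lower coordinate, chr16:23058182-23058244. Its midpoint is 7 bp outside the gene, and its replicate 2 summit is inside. The region scored 4.78 in replicate 1 and 5.25 in replicate 2. These are low values, at the 6.09 and 9.78 percentiles of all shared regions. A stronger shared region lay 12411 bp beyond the other end of Kng1 (6.72 in replicate 1 and 14.96 in replicate 2). Kng2 had a replicate 2 summit 1982 bp upstream of its start site (7.04) and none of replicate 1 within 10 kb.

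F5, which encodes the cofactor of factor Xa, had its regions deep inside the gene. It had no summit of either replicate within 10 kb of its ends but 3 shared regions inside its 68443 bp. The best, chr1:164162945-164162964, 11119 bp downstream of the start site, scored 22.4 in replicate 1 and 23.6 in replicate 2, which puts it at the 91.2 and 93.3 percentiles of all shared regions. The others inside the gene scored 6.32 and 3.43, and 7.07 and 6.07. F13b, the carrier subunit of the fibrin cross-linking factor XIII, had no summit within 10 kb and no shared region within 50 kb.

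Of the 7 vitamin K-dependent genes, 0 had a shared region within 10 kb and 3 within 50 kb, beside 20.6% and 46.8% of other genes. F2, which encodes prothrombin, had no summit within 10 kb, and its nearest shared region was 13602 bp upstream of the start site (14.4 and 11.7), 8 bp from Zfp408. F7, F10 and Proz stand side by side on chromosome 8. F7 had a replicate 2 summit 962 bp downstream of its start site (4.53). F10 and Proz, which encode factor X and protein Z, had a replicate 1 summit between them at 8.34 and a replicate 2 summit 151 bp downstream of the Proz start site at 6.97, with 3770 bp between them. The nearest shared region to F7 was 90818 bp away. Pros1, the gene of protein S, had a replicate 1 summit 621 bp downstream of its start site (10.4) and a shared region 25054 bp beyond its end (12.7 and 9.83). Proc, which encodes protein C, had a shared region 10941 bp from the gene, just outside the 10 kb window (6.58 and 6.93), and a replicate 2 summit at 8020 bp (4.96). F9 had no summit of either replicate within 50 kb, and its nearest shared region was 495679 bp away.

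Of the 5 fibrinolysis and related genes, 0 had a shared region within 10 kb and 1 within 50 kb, beside 20.6% and 46.8% of other genes. Plg, which encodes plasminogen, and Hgfac, the activator of hepatocyte growth factor, had no summit within 50 kb in either replicate. Vtn, which encodes the adhesive protein vitronectin, had a summit of each replicate 171 bp apart and 1371 and 1542 bp upstream of its start site (5.64 in replicate 1 and 3.63 in replicate 2), both inside the neighbouring gene Sarm1. Cpb2, the thrombin-activated inhibitor of fibrinolysis, had a replicate 1 summit 564 bp from its end (5.56), which is 187 bp from Zc3h13. Habp2, a protease that binds hyaluronan, had a replicate 2 summit inside the gene (4.21).

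**Figure D3:**
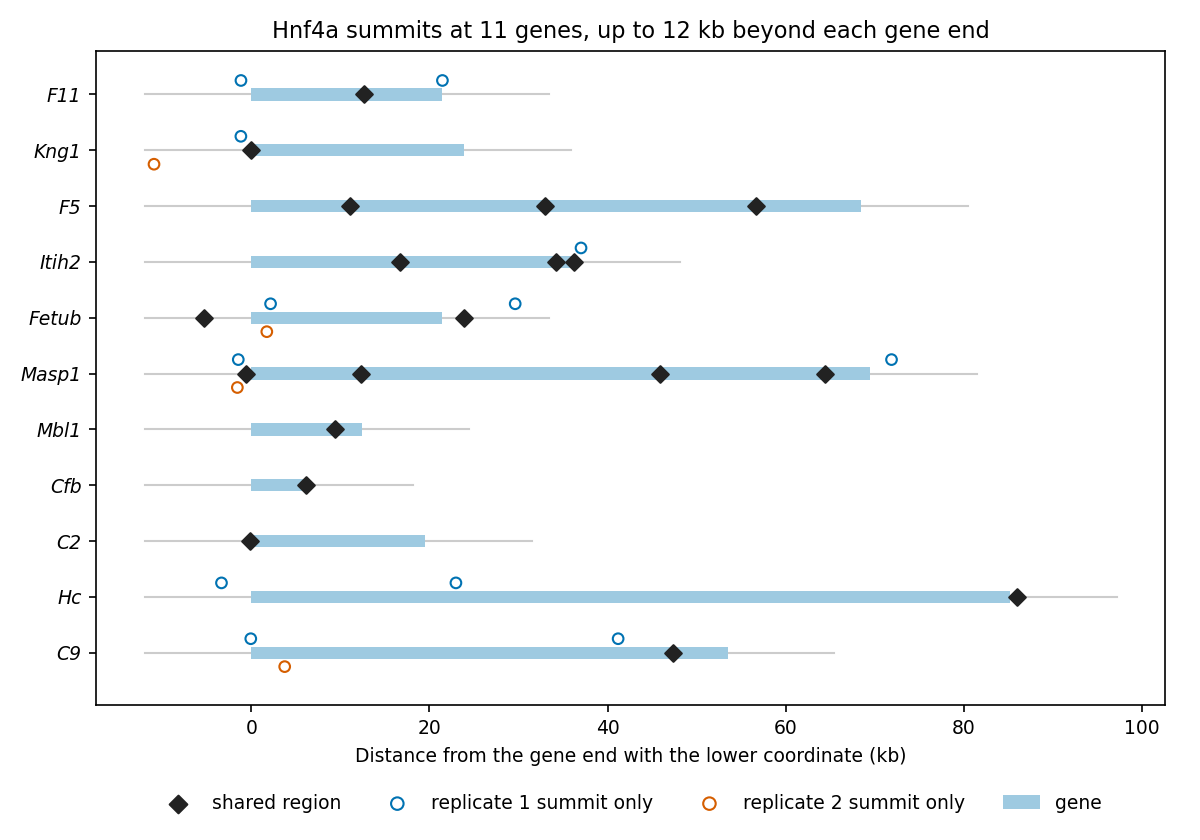
Positions of summits along 11 members, in kb from the gene end with the lower coordinate, without regard to strand; bars are genes, diamonds shared regions, and open circles summits of 1 replicate alone (blue above for replicate 1, orange below for replicate 2), drawn up to 12 kb beyond each end. Regions lie inside F5, Masp1, Mbl1, C9, F11 and Itih2, at or near a gene end in Itih2, Kng1, Cfb, C2, Hc and Masp1, and outside Fetub on both sides.

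Among the inter-alpha inhibitor genes, Itih2, which encodes a heavy chain, was the 1 of 5 with shared regions, and the others had replicate 1 summits alone. A shared region within 10 kb was present at 20.6% of other protein-coding genes. Both replicates placed a summit at the Itih2 start site, 144 bp upstream (11.7 and 15.1), in the window shown above. Another shared region lay 1885 bp downstream of the start site (6.54 and 6.96), and one more 19447 bp downstream (11.2 and 15.7). The next region beyond the start site, 25730 bp upstream and inside Itih5, had nearly the same scores (11.5 and 15.1). Replicate 1 alone had a further summit 926 bp upstream (7.85).

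Itih1, Itih3 and Itih4 encode other heavy chains and lie within 56814 bp of each other on chromosome 14. Within 50 kb of their ends replicate 1 had 5 summits, with scores from 3.10 to 12.3, and replicate 2 had 0. The best was inside Itih3 (12.3), 6991 bp downstream of its start site, and others were inside Itih1 (9.77), between Itih4 and Itih3 (6.18) and 71 bp from Nek4 (11.4). The nearest replicate 2 summits were 25561 to 84689 bp from these. Ambp, which encodes bikunin together with alpha-1-microglobulin, had a replicate 1 summit 2914 bp upstream of its start site (13.3), 862 bp from Kif12, and the nearest replicate 2 summit was 66119 bp away. The best scores of Itih3 and Ambp were above the replicate 1 median over all shared regions, 9.93, although replicate 2 had no summit within 50 kb of either gene.

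The fetuin genes Ahsg and Fetub encode carriers of mineral and inhibitors of proteases and are neighbours on chromosome 16. Fetub had shared regions on both sides. That at chr16:22913050-22913084, 5315 bp upstream of its start site, is the one in the Gm30611 window (19.2 and 9.60). That at chr16:22942199-22942210, 2436 bp beyond the other end, scored 17.6 and 5.598. In both, replicate 1 gave the higher score, at the 86.5 and 83.1 percentiles of its shared regions, against the 49.8 and 13.3 percentiles in replicate 2. Close to the second Fetub start site each replicate placed a summit, 422 bp apart, at 311 bp downstream in replicate 1 (6.82) and 111 bp upstream in replicate 2 (7.55). Ahsg had a replicate 2 summit 977 bp from its end (8.33), and both Fetub regions lie within 50 kb of it, at 13616 and 42753 bp.

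Complement genes had shared regions within 10 kb in 6 of 18 cases and within 50 kb in 10 of 18, beside the same 20.6% and 46.8% of other genes. Of the genes that start the cascade, Masp1, which encodes a protease of the lectin pathway, held 3 shared regions inside the gene and 1 at 571 bp outside. That at the gene end scored 7.22 and 9.29. Those inside scored 15.6 and 10.96, 6.08 and 8.25, and 12.04 and 9.18, and the last lies 5076 bp from the gene end. A pair of summits 1475 and 1579 bp outside the same end missed the 100 bp limit by standing 104 bp apart (10.7 in replicate 1 and 11.8 in replicate 2). Replicate 1 alone had a summit 2433 bp beyond the other end, inside Rtp4 (12.3). Masp2, its partner protease, had no summit within 10 kb.

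Mbl1, which encodes a mannose-binding lectin, had a shared region inside the gene, 9347 bp downstream of its start site (6.72 and 5.67). Mbl2 had a replicate 1 summit 9135 bp from the gene (7.46). C1ra and C1s1 encode the proteases of the C1 complex. C1ra had a replicate 1 summit 97 bp downstream of its start site (7.78), and C1s1 had no summit within 10 kb. Both had a strong shared region within 50 kb, chr6:124485173-124485186, which scored 27.1 and 22.2 and is nearest to C1rl, at 7934 bp. It had the highest replicate 1 score of the 32 shared regions within 50 kb of a member's end or inside it.

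Of the genes for the convertases, which cut C3 and C5, C2 and Cfb share 1 region. Their facing ends are 88 bp apart, and the region, chr17:34862453-34862530, has its midpoint 23 bp inside Cfb and 111 bp from C2. It scored 22.0 in replicate 1 and 15.9 in replicate 2, with the replicate summits 77 bp apart. The region counts for both genes, which is why 10 members but 9 loci had one. C3, the central component, had a weak replicate 2 summit 4156 bp from its end (2.25) and a shared region 21213 bp upstream of its start site and inside Trip10 (17.5 and 13.8). C4b had no summit within 50 kb. It has a close copy, C4a. How reads were placed between such copies is not known here, which also holds for Kng1 and Kng2 and for C1ra and C1s1 with their copies.

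The regulators C4bp and Cfi encode a cofactor and the protease that cut C4b, and they had no shared region within 50 kb. Within 10 kb, C4bp had a replicate 2 summit at 3.19 and Cfi a replicate 1 summit at 2.44, and the lowest scores in those lists were 2.01 and 2.04. C4bp had another replicate 2 summit inside the gene, 13080 bp downstream of its start site (6.85).

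Of the terminal components, which form the membrane pore, Hc, the gene of C5, and C9 had shared regions within 10 kb. The Hc region, chr2:35069299-35069319, lies 803 bp outside the gene end, at position -7897 from the start site in the promoter table, and scored 19.5 and 20.5, the highest replicate 2 score among the 12 regions within 10 kb. The C9 region lies within the gene, 47401 bp downstream of its start site (14.4 and 5.67). Close to the C9 start site the replicates differed, with a replicate 1 summit 71 bp upstream (7.01) and a replicate 2 summit 3737 bp downstream (5.89). C8g had a summit of each replicate inside the gene, 103 bp apart (5.04 and 7.77), and so just missed the limit for sharing. C6, C8a and C8b had no summit within 10 kb, although C8a had a replicate 1 summit farther inside the gene (10.9). The shared region nearest to C6 was 693557 bp away.

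**Figure D4:**
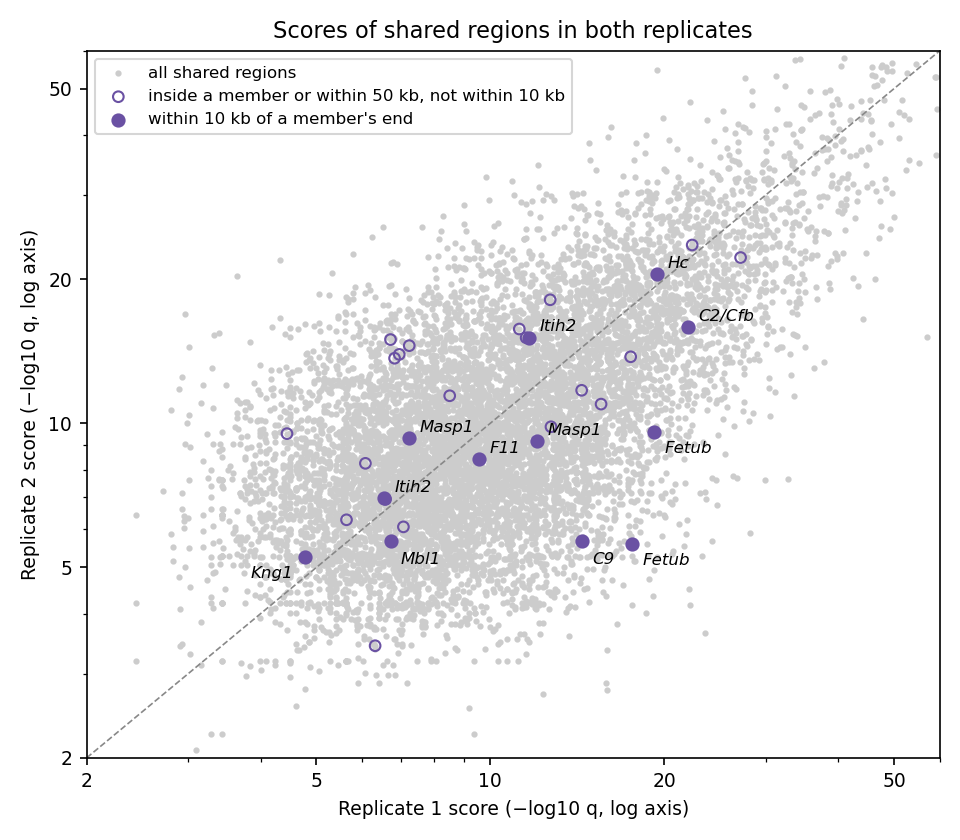
Score (−log10 q, log axes) of each shared region in replicate 1 and replicate 2; grey points are all 9193 shared regions (55 lie beyond the axis ends of 60), filled purple points the 12 regions within 10 kb of a member's end, open points the other regions inside a member or within 50 kb, and the dashed line marks equal scores. Hc and the C2/Cfb region score highest among the filled points, and the Fetub and C9 regions lie below the line.

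The members' regions had ordinary scores. Replicate 1 gave the 12 shared regions within 10 kb a median score of 11.8, where all 9193 had 9.93. In replicate 2 the medians were 8.80 and 9.61. Scores ran from 4.78 to 22.0 in replicate 1 and from 5.25 to 20.5 in replicate 2, and 7 of the 12 scored higher in replicate 1. Across these 12 regions Spearman's rho between the replicates was 0.599, against 0.587 over all shared regions, as a description with no p. The summits of both replicates stood a median of 27.5 bp apart, against 32 bp. All 12 had a member as the nearest protein-coding gene.

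Farther out, distance alone makes another gene more likely to be the nearest, and no matching count was made around other genes. Another 20 shared regions lay within 50 kb of an end or inside a member without being within 10 kb of an end, and for 11 of them the nearest gene was no member. They include the F2 and C3 regions above, the region inside Ehmt2 near Cfb and C2 (7.24 and 14.5), and those 182 bp from Tmem97 beyond Vtn (4.45 and 9.51) and inside Paxx near C8g (6.83 and 13.7). Altogether 12 members had a shared region within 50 kb but none within 10 kb. Of other genes, 46.8% had a shared region within 50 kb and 20.6% within 10 kb. In 5 members (C6, Plg, C4b, Hgfac and F9) there was no summit of either replicate within 50 kb. The matching shares of other genes were not counted, for a shared region within 50 kb but not 10 kb or for no summit within 50 kb. Whether the members differ from other genes in these counts is therefore not known.

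Within 10 kb of a member, 23 of 35 summits of replicate 1 and 13 of 25 of replicate 2 had no partner within 100 bp. Over the genome most summits had no partner either, with 9193 shared regions from lists of 21283 and 24097 summits. The median scores of the unpartnered summits near members were 7.78 and 5.89. Their highest scores were 13.3 at Ambp in replicate 1 and 11.8 at Masp1 in replicate 2. In each replicate, 4 of them lay within 500 bp of a summit in the other list.

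Other genes of these pathways that are not members were taken from a list of 60, of which 59 were found. Shared regions within 10 kb were present at 18 of the 59 (30.5%, against the 20.6% above). They were at 8 of 21 other coagulation and fibrinolysis genes, 4 of 27 complement genes and 6 of 11 genes related to inter-alpha inhibitor and hyaluronan. This list too was chosen with earlier results of these data known, neighbours were not joined, and no share was tested. The regions at Hrg, Itih5 and C1rl also lie within 50 kb of members. Plaur, the receptor of urokinase, had a region inside the gene (10.2 and 15.2). F2rl1, a receptor cut by clotting proteases, had one 251 bp outside (12.5 and 11.5). Cd44, the hyaluronan receptor, had one 234 bp downstream of its start site (8.44 and 10.6). Spint2, an inhibitor of membrane proteases and of the growth factor activator, had one 2103 bp outside (10.9 and 23.0). Cd55, which speeds the decay of complement convertases, had one inside the gene (9.63 and 22.2). Hrg, a plasma glycoprotein next to Fetub, shares the region beyond the Fetub end (17.6 and 5.598).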

How the data were processed

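The authors deposited 1 list of 1-bp summits per library in mm10, with a −log10 q per summit, and per the submitters' processing notes the tools were fastp 0.23.4, HISAT2 2.0.5 and MACS2 2.2.9.1. Peak names carry a q threshold of 0.01. Control, duplicate handling and filters on problem regions are not given in the sources used here. Both replicates went into 1 group, and scores were not scaled.

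Summits of both lists were merged where each lay within 100 bp of the next, and the midpoint of a region with both replicates was placed against RefSeq genes of GRCm38.p6. Distances run to gene ends, since 8 members have no start site in the promoter table. The members, roles, letters searched and other pathway genes were chosen with earlier results of these data known, so no list was tested, and counts stand beside those of all other protein-coding genes. All members may be named. Other genes are named where they lie nearest to a described region, share a locus with a member or belong to the other pathway list. With 1 group of 2 libraries no condition could be compared. Counting was checked on planted summits. Python 3.11.15, numpy 2.4.6, pandas 2.3.3, scipy 1.17.1 and matplotlib 3.10.9 were used. Alternatives changed the sharing distance, score limit, list length, window and background.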

Additional observations from a re-analysis of the deposited data

How the results depend on the processing

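Requiring both replicates mattered most. With 1 replicate left out, no sharing was required. Then 21 to 24 of 44 members had a summit within 10 kb, 31 to 37 within 50 kb and 14 to 15 inside the gene. Of other genes, 39.4 to 41.9% had one within 10 kb, 69.3 to 72.4% within 50 kb and 26.3 to 28.4% inside. A summit was present at 17 to 19 of 35 member loci, against 41.6 to 43.8% of the other genes' loci. Of the 10 members, 4 have no start site in the promoter table (Kng1, Masp1, Cfb and C2). Among the 36 members that have one, 6 had a shared region within 10 kb of a gene end, a count chosen after seeing the data, and 5 within 10 kb of a start site, with 20.7% and 16.6% of other genes. The remaining alternatives kept the members' counts within 1.5 times. Sharing distances of 50, 200 and 500 bp, scores of 5 or more and the best 10000 summits were tried. Between 7 and 12 members then had a shared region within 10 kb. Of other genes, 15.2% had one at 50 bp, 24% at 200 bp and 25.4% at 500 bp. Their share was 18.2% at scores of 5 or more and 12% among the best 10000, so it moved with the members' counts. F11, Fetub, Hc, Itih2 and Masp1 had a shared region in each of these settings. Cfb, C2 and Kng1 lost theirs at 50 bp, Kng1 also at scores of 5 or more, and C9, Kng1 and Mbl1 among the best 10000. C8g and Vtn gained one at 200 and 500 bp. The share of other genes with a shared region within 10 kb was 21.6% without olfactory receptors, 21.4% without chromosomes X and Y and 25.1% when neighbours were counted once. Read depth is unknown, so what it limits could not be measured. No paired analysis was possible because there is 1 group and nothing to pair it with.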
